A study of Homo sapiens with 40 samples.

Results

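The BCL2 family of survival and death genes was followed in cells in which caspase-10 was knocked down. The set was fixed by symbol as 9 genes: the survival genes BCL2, BCL2L1, MCL1 and BCL2A1, the pore-forming death genes BAX and BAK1, and the BH3-only genes BID, BAD and BCL2L11. Of these, 7 had at least 1 probe in the array's annotation, and BID and BCL2L11 had none and were not analysed here. The 7 genes were read by 29 of the 15246 probes. They were 7 of the 4604 named genes and of the 9681 features tested, a feature being a named gene with its probes averaged or a single unnamed probe.

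BCL2 family proteins decide whether the outer membrane of the mitochondrion stays closed. BAX and BAK1 form the pore through which cytochrome c leaves to activate caspases, the survival proteins hold them in check, and BH3-only proteins such as BAD bind the survival proteins and so release that check. Myeloma cells are malignant plasma cells, and they are known for their reliance on MCL1. Caspase-10 is an initiator caspase of the death receptor arm, which meets the mitochondrial arm through BID.

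Cells were transduced with retroviral vectors for a doxycycline-inducible shRNA against CASP10, selected with puromycin and induced with 20 ng/ml doxycycline for 24 to 120 hours. The induced cells were of the myeloma lines SKMM1 (shCasp10-2, 12 arrays in 3 repeats), H929 (shCasp10-2, 8 arrays in 2 repeats, and shCasp10-3, 4 arrays) and KMS12 (4 arrays with each hairpin), or of the lymphoma control lines OCI-Ly7 and OCI-Ly19 (shCasp10-2, 2 arrays each). Each of these 36 arrays set induced cells, in Cy5, against uninduced cells, in Cy3, that matched them in line and day. A further 4 arrays set SKMM1 with induced shCasp10-2 against SKMM1 with an induced control shRNA, shCtrl. Uninduced cells had no doxycycline, so the drug and the hairpin cannot be told apart on the 36 arrays.

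The values are log2 ratios of induced over uninduced cells, with the base and the direction taken as likely, since neither is stated. A ratio gives no level, so the lines could not be checked against plasma cell markers, and levels of different genes could not be compared. On 12 of the 40 arrays, called wide here, 10.3% to 46.4% of all probes lay beyond 3 in size, against at most 8.58% on the other 28. Across all probes, 87 of 780 pairs of arrays had a Pearson's r under -0.3, with the lowest, -0.52, between repeats 2 and 3 of SKMM1, so the direction of these repeats is not settled. Their signs were kept as deposited and also turned. CASP10 itself was below 0 on 29 of 32 myeloma arrays and on all 4 arrays against shCtrl. The arrays labelled OCI-Ly7 gave 1.50 and 2.04, both above 0, and those labelled OCI-Ly19 gave 0.12 and -0.24, so the knockdown was not seen in the lymphoma libraries, which are named here by their labels. In RNA of whole cultures, fewer cells that express a gene and less of its RNA per cell cannot be told apart.

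No gene of the family passed the test in any comparison. The main question was whether family RNA differed between induced and uninduced myeloma cells. It was addressed with 8 time courses (a line, hairpin and repeat), each averaged over days 2 to 4, and the 3 lines weighted equally. With all arrays, limma called 0 of the 7 genes and 0% of the 9681 features after Benjamini-Hochberg adjustment at 0.05, with 0 of the 7 and 467 of all features at an unadjusted p under 0.05. Of the fitted values 6 lay below 0 and their median was -0.10, beside -0.27 for all features. Without the wide arrays, in a fit of 16 single arrays from 7 courses, 0 of the 7 were called, against a background of 4.57% (442 features, 139 higher and 303 lower). Here 1 of the 7 was at an unadjusted p under 0.05, and the 7 genes' median was -0.05, beside 0.01 for all features.

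That background moved with single courses. Without KMS12 shCasp10-2 it was 0 features, without KMS12 shCasp10-3 it was 9, without H929 shCasp10-2 repeat 1 it was 17, without H929 shCasp10-3 it was 213 and without SKMM1 repeat 3 it was 790. Without SKMM1 repeat 1 it was 578, with the balance of directions the other way, 464 higher and 114 lower. Turning the sign of SKMM1 repeat 3 gave 0. Averaging each course in place of using single arrays, also without the wide arrays, gave 0 as well. None of these settings called a family gene.

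**Figure D1:**
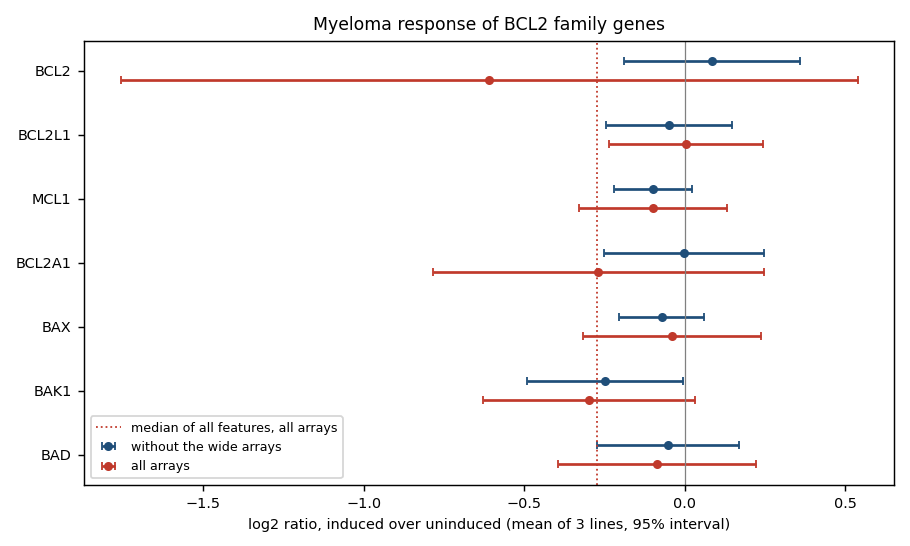
Fitted log2 ratio of induced over uninduced myeloma cells (x axis) for the 7 family genes (y axis), with 95% intervals, without the wide arrays (blue) and with all arrays (red). The dotted line is the median of all features with all arrays, -0.27. Only the blue interval of BAK1, -0.49 to -0.01, leaves out 0, before adjustment.

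Among the survival genes, BCL2 (18:63123346-63320090, GRCh38.p14, 7 probes) had the widest range of course means. In SKMM1 the course means were 0.30, -2.66 and 1.18 in repeats 1, 2 and 3. In H929 they were -1.40 and 0.27 with shCasp10-2 and -1.50 with shCasp10-3, and in KMS12 they were -1.12 with shCasp10-2 and -0.01 with shCasp10-3. As deposited, repeats of the same line lay on both sides of 0, in SKMM1 only through repeat 2, and the mean over the 8 courses was -0.61 ± 1.26 (SD). The fitted response was -0.61 (SE 0.47, adjusted p = 0.682) with all arrays and 0.09 (SE 0.13, adjusted p = 0.762) without the wide ones. The all-array value was -0.23 without SKMM1 repeat 2, -0.02 with the sign of that repeat turned and -0.87 with that of repeat 3 turned. With repeat 3 turned, BCL2 stood at -0.21 without the wide arrays.

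All BCL2 values below -1.03 were on wide arrays. BCL2 averaged -2.01 ± 1.52 on the 11 wide myeloma arrays, where it was below 0 on 10, and 0.09 ± 0.51 on the other 21 (SD), where it was below 0 on 7. Its range on those 21 was -1.03 to 1.03. On the wide arrays with a median below 0 for all probes, BCL2 was low as well, and on SKMM1 repeat 3 day 4, the myeloma array with the highest median (0.36), BCL2 was at its highest, 1.66.

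**Figure D2:**
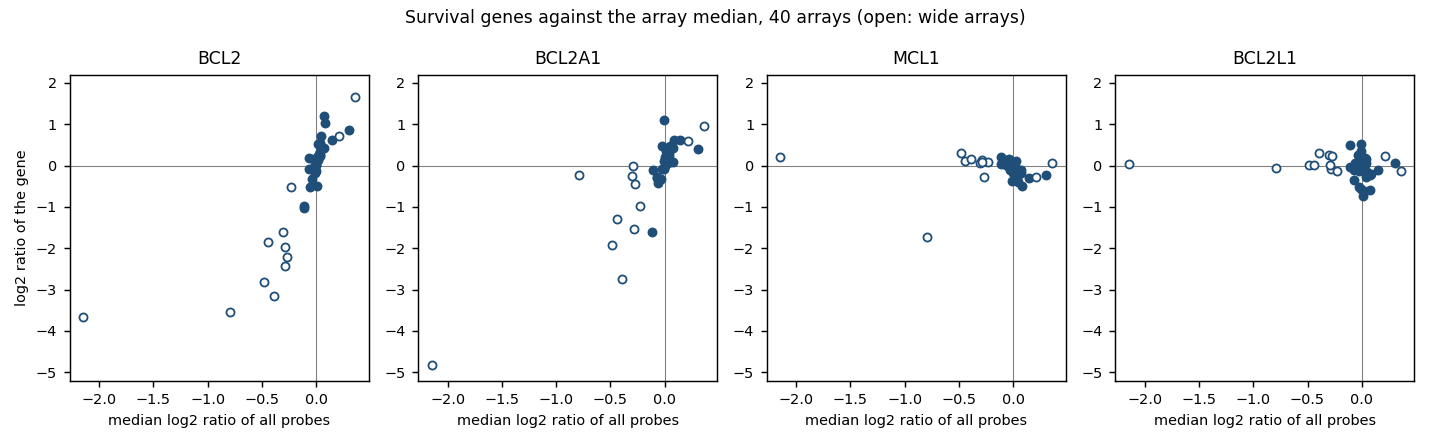
Log2 ratio of each survival gene (y axes) against the median log2 ratio of all probes on the same array (x axes) for the 40 arrays, wide arrays open and the others filled. BCL2 and BCL2A1 were at their lowest, -3.66 and -4.84, on the array with the lowest median, -2.15. On SKMM1 repeat 2 day 2, with a median of -0.79, BCL2 was at -3.54 and BCL2A1 at -0.22. BCL2L1 stayed between -0.74 and 0.52 on all arrays.

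BCL2A1 (15:79960892-79971196, 5 probes), a survival gene of lymphoid cells under NF-kB control, had course means with a lowest value of -0.98, a median of -0.33 and a highest of 0.66. The lowest courses were H929 shCasp10-2 repeat 1 and SKMM1 repeat 2 (-0.80), and the highest was SKMM1 repeat 3, and the SKMM1 repeats lay on both sides of 0 only with repeat 2 as deposited. Its fitted response was -0.27 (SE 0.21, adjusted p = 0.682) with all arrays and -0.0025 (SE 0.12, adjusted p = 0.994) without the wide ones. The all-array value was -0.13 without SKMM1 repeat 2, -0.09 with that repeat turned and -0.42 with repeat 3 turned, and the value without the wide arrays was -0.16 with repeat 3 turned. On wide myeloma arrays BCL2A1 averaged -1.21 and on the others 0.03.

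MCL1 (1:150574558-150579610, 6 probes), a short-lived survival protein on which plasma cells depend, had course means within a narrow range. Its course means were -0.16, -0.45 and -0.22 in SKMM1, 0.04, -0.17 and -0.09 in H929 (the last with shCasp10-3), and 0.15 and -0.04 in KMS12 with shCasp10-2 and shCasp10-3. It was below 0 in all 3 SKMM1 courses as deposited, and above 0 in 1 course of H929 and 1 of KMS12. In SKMM1 repeat 2 the mean was below 0 through day 2 alone. There MCL1 was -1.72 on day 2, 0.31 on day 3 and 0.06 on day 4, all on wide arrays. The fitted response was -0.10 in both fits, with an SE of 0.096 with all arrays (adjusted p = 0.693) and 0.056 without the wide ones (adjusted p = 0.333). The second fit's 95% interval was -0.22 to 0.02. With the sign of SKMM1 repeat 2 turned the first value was 0.0019, and with that of repeat 3 turned the second was 0.01.

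BCL2L1 (20:31664452-31723963, 2 probes), which encodes BCL-XL and a shorter death-promoting splice form, had the fitted value closest to 0 with all arrays, and BCL2A1 had it without the wide ones. Its course means had a lowest value of -0.31 (SKMM1 repeat 1), a median of 0.03 and a highest of 0.26 (KMS12 shCasp10-2). Its fitted response was 0.0042 (SE 0.099, adjusted p = 0.983) with all arrays and -0.05 (SE 0.092, adjusted p = 0.815) without the wide ones, and the 95% interval with all arrays was -0.24 to 0.24. Over the 32 myeloma arrays its SD was 0.25, lower than that of all but 2.79% of features. On the 21 that are not wide its SD was 0.29, lower than that of all but 27.4% of features.

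BAX (19:48954875-48961798, 4 probes) and BAK1 (6:33572552-33580276, 2 probes) are the pore formers. BAX course means were 0.04, 0.44 and -0.14 in SKMM1, -0.31, 0.11 and 0.06 in H929 (the last with shCasp10-3), and -0.23 and -0.15 in KMS12 with shCasp10-2 and shCasp10-3. They lay on both sides of 0 in SKMM1 and in H929, and below 0 with both hairpins in KMS12. Its fitted response was -0.04 (SE 0.11, adjusted p = 0.872) with all arrays and -0.07 (SE 0.062, adjusted p = 0.543) without the wide ones. BAX was the steadiest family gene on the 21 myeloma arrays that are not wide: it ran from -0.27 to 0.31, was below 0 on 18, and its SD of 0.15 was lower than that of all but 0.992% of features. One array stood apart, H929 shCasp10-2 repeat 1 day 1, at -5.90. It is wide, its median over all probes was -2.15, and day 1 is not part of the fits. Over all 32 myeloma arrays the SD of BAX was 1.06, lower than that of all but 39.1% of features.

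BAK1 had the lowest fitted value without the wide arrays, a rank it lost to BCL2 (-0.21) and BCL2A1 (-0.16) with the sign of SKMM1 repeat 3 turned. Its course means were 0.03, -0.60 and -0.64 in SKMM1, -0.22, 0.21 and -0.52 in H929 (the last with shCasp10-3), and -0.28 and -0.35 in KMS12 with shCasp10-2 and shCasp10-3. It was below 0 in 6 of the 8 courses and on all 8 KMS12 arrays, which ran from -0.41 to -0.20. The medians of all probes on those arrays were below 0 too, from -0.289 to -0.004, and BAK1 lay below each of them. The share of all features below 0 on all 8 KMS12 arrays was not taken. SKMM1 and H929 each held 1 course above 0. The fitted response was -0.30 (SE 0.14, unadjusted p = 0.0695, adjusted p = 0.682) with all arrays and -0.25 (SE 0.11, unadjusted p = 0.045, adjusted p = 0.221) without the wide ones. The value without the wide arrays depended on single courses: it was -0.17 without SKMM1 repeat 3, -0.165 without H929 shCasp10-3 and -0.36 (adjusted p = 0.077) without H929 shCasp10-2 repeat 2. H929 shCasp10-3 entered that fit as 1 array, at -1.145. Leaving out all arrays with over 5% of probes beyond 3 gave -0.14 (SE 0.13, unadjusted p = 0.28, adjusted p = 0.451). The value without the wide arrays was -0.12 with SKMM1 repeat 3 turned. Fitted on course means in place of single arrays, it was -0.31 (SE 0.18, unadjusted p = 0.134, adjusted p = 0.445). The value with all arrays was -0.17 with SKMM1 repeat 2 turned and -0.16 with repeat 3 turned.

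BAD (11:64269828-64284704, 3 probes), the BH3-only gene whose protein is held inactive by phosphorylation, had course means with a lowest value of -0.70, a median of -0.02 and a highest of 0.15. The lowest was SKMM1 repeat 3, and the other 7 courses lay between -0.18 and 0.15. Within that course BAD was -0.60 on day 2, 0.42 on day 3 and -1.91 on day 4, the last on a wide array. The fitted response was -0.09 (SE 0.13, adjusted p = 0.756) with all arrays and -0.05 (SE 0.10, adjusted p = 0.831) without the wide ones.

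**Figure D3:**
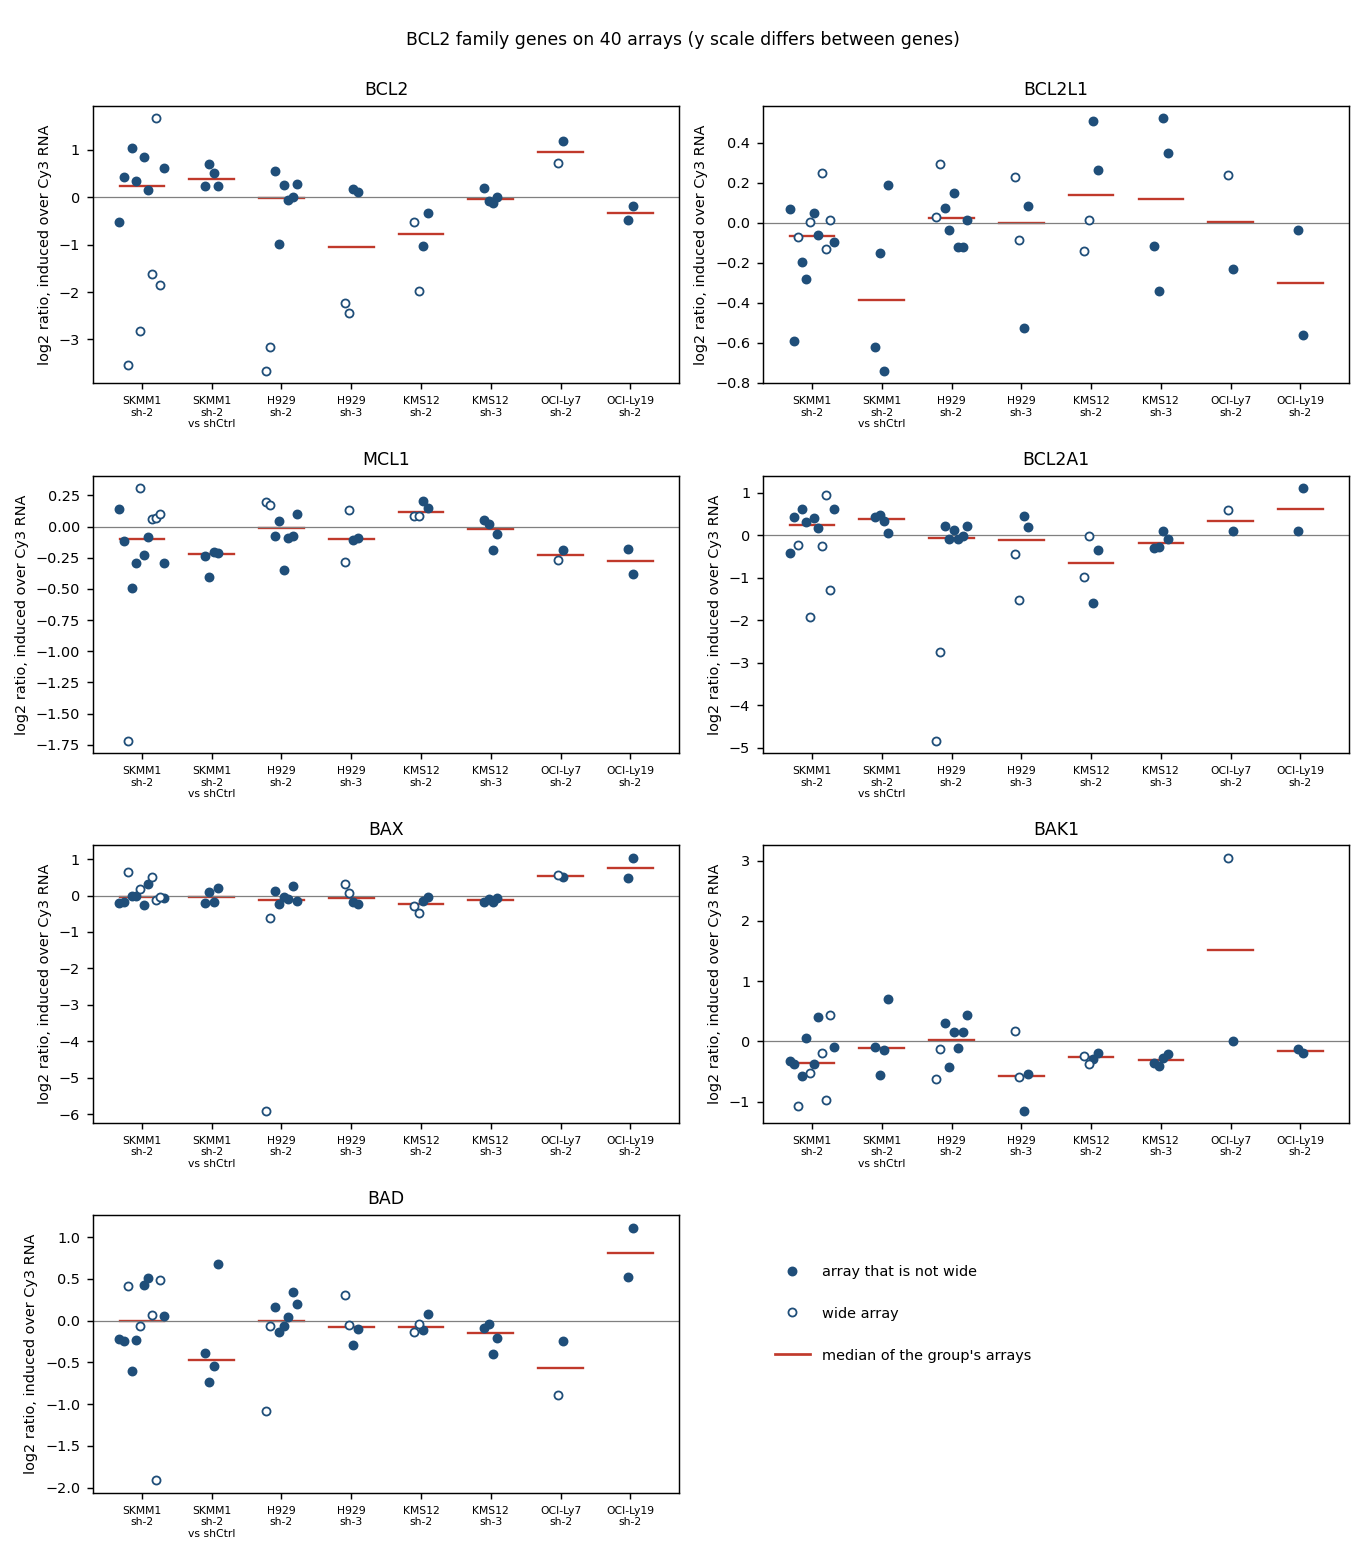
Log2 ratio of each family gene on all 40 arrays (y axes, scales differ), by line and hairpin (x axes, sh-2 and sh-3 stand for shCasp10-2 and shCasp10-3), with wide arrays open, the others filled and the group medians in red. Within a group the arrays run from the first day to the last. BAX lies above 0 on the 4 lymphoma arrays, at 0.48 or more, and within 0.31 of 0 on all myeloma arrays that are not wide.

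The probes of a gene did not always move together. Of the 29 probes, 21 had a fitted value below 0 and 8 above, 2 were at an unadjusted p under 0.05 and 0 were called, beside 0% of all 15246 probes (804 at an unadjusted p under 0.05). Of the 29 probes 2 were below 0 in all 8 courses, beside 3.04% of all probes: the BCL2 probe 24367_1 (mean -1.12, highest course -0.04) and the MCL1 probe 26351_1 (mean -0.31 ± 0.13, SD; fitted -0.31, SE 0.093, unadjusted p = 0.0157, adjusted p = 0.705). The other 5 MCL1 probes had means of -0.53 to 0.12. The lowest of these, 36123_1, was at -3.04 in SKMM1 repeat 2, and above 0 in 2 of the other 7 courses. MCL1 has splice forms of opposite function, and which form each probe reads is not given in the sources used here.

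Both BAK1 probes had means below 0, -0.21 ± 0.30 for 16550_1 and -0.38 ± 0.36 for 28705_1 (SD over 8 courses), and the second had an unadjusted p of 0.0282 and an adjusted p of 0.705. For BAX, 3 probes had means between 0.03 and 0.04 and the fourth, 35175_1, had -0.18 and was below 0 in 7 of 8 courses. With the wide arrays included, the BCL2 probes split in 2 sets. The means were between -0.25 and 0.08 for 16789_1, 17646_1 and 19332_1, and between -1.12 and -0.89 for the other 4. On the 21 myeloma arrays that are not wide the sets overlapped. Medians there were -0.18, 0.11 and 0.22 in the first set. In the second they were -0.24 (24367_1), -0.035 (28859_1), 0.40 (31826_1) and 0.32 (34107_1). The least steady was 34107_1, beyond 3 in size on 11 of the 40 arrays. Among the BCL2A1 probes, 26039_1 had a mean of -0.93 ± 1.58 (SD) and the other 4 lay between -0.30 and 0.11.

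**Figure D4:**
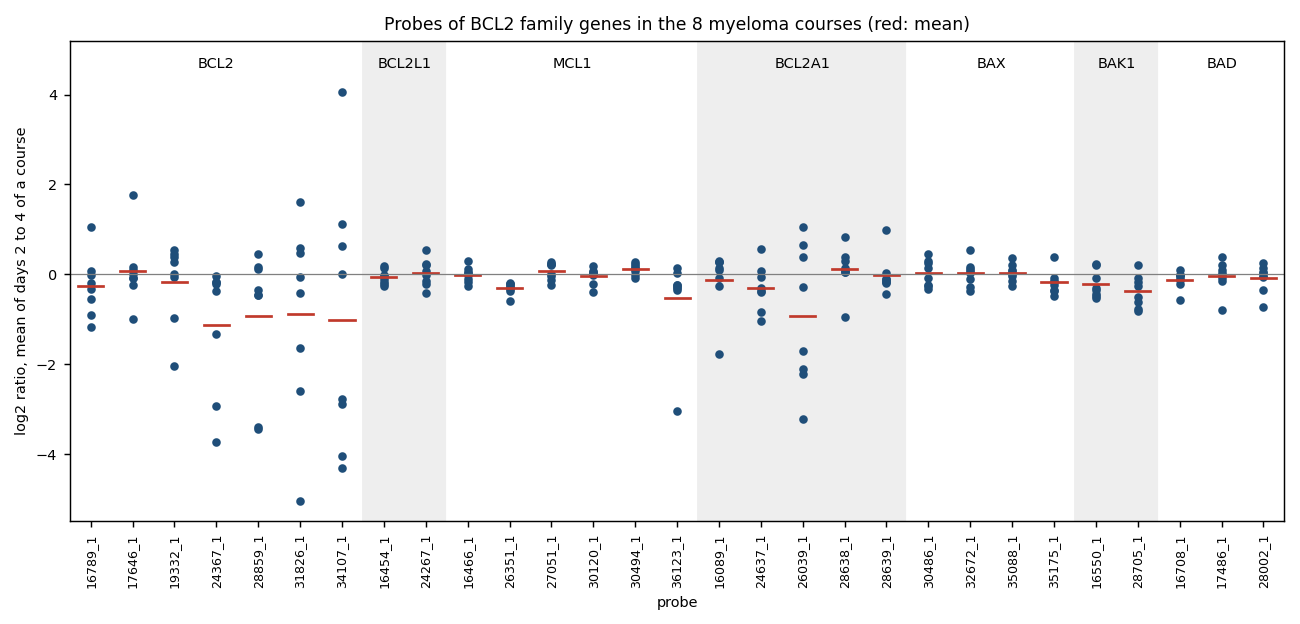
Mean log2 ratio over days 2 to 4 (y axis) of each of the 29 probes (x axis, grouped by gene) in each of the 8 myeloma courses (points), with the mean of the courses in red. The points of 4 BCL2 probes and of BCL2A1 26039_1 spread over several log2 units, and those of BCL2L1, BAX, BAK1 and BAD lie within 1 of 0.

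The lines, hairpins and days were then set against each other. For SKMM1 minus H929, limma called 0 of the 7 genes and 0% of all features (40 at an unadjusted p under 0.05), and the 7 fitted differences lay between -0.23 (BAK1) and 0.51 (BCL2A1). For SKMM1 minus KMS12 it called 0 of the 7 and 0% of all features (75 at an unadjusted p under 0.05), with differences from -0.33 (MCL1) to 0.46 (BCL2A1). For H929 minus KMS12 it called 0 of the 7 and 0% of all features (24 at an unadjusted p under 0.05), with differences from -0.31 (BCL2) to 0.14 (BAX). None of the 7 was at an unadjusted p under 0.05 in these comparisons with all arrays as deposited. With SKMM1 repeat 2 turned, 2 of the 7 and 2476 features were under 0.05 for SKMM1 minus H929. For SKMM1 minus KMS12 these counts were 1 and 1686. With repeat 3 turned, 0 of the 7 were in either. Course means without the wide arrays gave 0 and 1195 for SKMM1 minus H929, and 1 and 1877 for SKMM1 minus KMS12. None of these settings called a feature. The comparisons with all arrays were imprecise. The half-width of the 95% interval of SKMM1 minus KMS12 ran from 0.59 for MCL1 to 2.91 for BCL2. Differences of that size would not have been detectable.

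For shCasp10-3 minus shCasp10-2, estimated within H929 and KMS12, limma called 0 of the 7 genes and 0% of all features (172 at an unadjusted p under 0.05). The largest difference was that of BAK1, -0.32 (SE 0.36). For the change per day from day 2 to day 4, it called 0 of the 7 and 0% of all features (1066 at an unadjusted p under 0.05). BCL2 had the highest slope, 0.51 per day (SE 0.25, unadjusted p = 0.0837, adjusted p = 0.399), beside a median of 0.25 for all features. As deposited, the BCL2 slope was positive in 5 of 8 courses and over 0.8 per day in 4. The positive slopes included those of SKMM1 repeats 2 (0.96) and 3 (0.32), whose direction is not settled. Each of the 4 courses over 0.8 held wide arrays on its earlier days, and SKMM1 repeat 2 on all its days. In the other courses the slope ran from -0.27 to 0.32.

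The lymphoma lines served the study as controls for the myeloma response, and were measured on days 3 and 4. Of the 7 genes, BAX had the smallest p in this comparison. On the 16 myeloma arrays of those days it had a lowest value of -0.27, a median of -0.07 and a highest of 0.51, while on the arrays labelled OCI-Ly7 and OCI-Ly19 it was above 0 every time. OCI-Ly7 had 0.57 on day 3 and 0.51 on day 4, and OCI-Ly19 had 0.48 and 1.03. Of the 16 myeloma arrays, 1, the wide array of SKMM1 repeat 2 day 4, lay above the lowest lymphoma array. All 4 BAX probes were above 0 on all 4 lymphoma arrays, between 0.17 and 1.28, and BAX was above the array median on each. The share of all features above 0 on these 4 arrays was not taken.

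The fitted difference of BAX, myeloma minus lymphoma, was -0.66 (SE 0.23, 95% interval -1.22 to -0.11, unadjusted p = 0.0262), and its adjusted p was 0.408. No lymphoma line had a repeat course, so this SE rests on the spread of the myeloma courses. Over all features, limma called 0% here, 0 of them family genes, with 1032 features and 2 family genes at an unadjusted p under 0.05. Without the wide arrays 2.13% of features were called (206, with 165 lower in myeloma), again with 0 of the 7, and BAX stood at -0.71 (SE 0.20, unadjusted p = 0.012, adjusted p = 0.15). The 12 myeloma arrays of days 3 and 4 that are not wide ran from -0.27 to 0.31 for BAX and the 3 such lymphoma arrays from 0.48 to 1.03, with no overlap. Of the 7 genes only BAX lay below lymphoma without overlap, and 1.57% of all features did. With the sign of SKMM1 repeat 2 turned the BAX difference was -0.74 (adjusted p = 0.253), and with that of repeat 3 turned it was -0.62 (adjusted p = 0.223).

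BAK1 had a difference of -0.98 (SE 0.36, unadjusted p = 0.032, adjusted p = 0.429), which rested on 1 array. On the 16 myeloma arrays it had a lowest value of -1.15, a median of -0.28 and a highest of 0.41, against 3.04 and 0.004 in OCI-Ly7 and -0.12 and -0.19 in OCI-Ly19. The high array was OCI-Ly7 day 3, a wide array, on which probe 16550_1 read 5.86 and probe 28705_1 read 0.22. Without the wide arrays the BAK1 difference was -0.19 (SE 0.38). The other 5 differences lay between -0.74 (BCL2A1, SE 0.51) and 0.24 (MCL1, SE 0.22), all with an unadjusted p of at least 0.192. MCL1 was below 0 and below the array median on all 4 lymphoma arrays, with -0.27 and -0.19 in OCI-Ly7, and -0.18 and -0.38 in OCI-Ly19. The share of all features below 0 on these arrays was not taken.

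**Figure D5:**
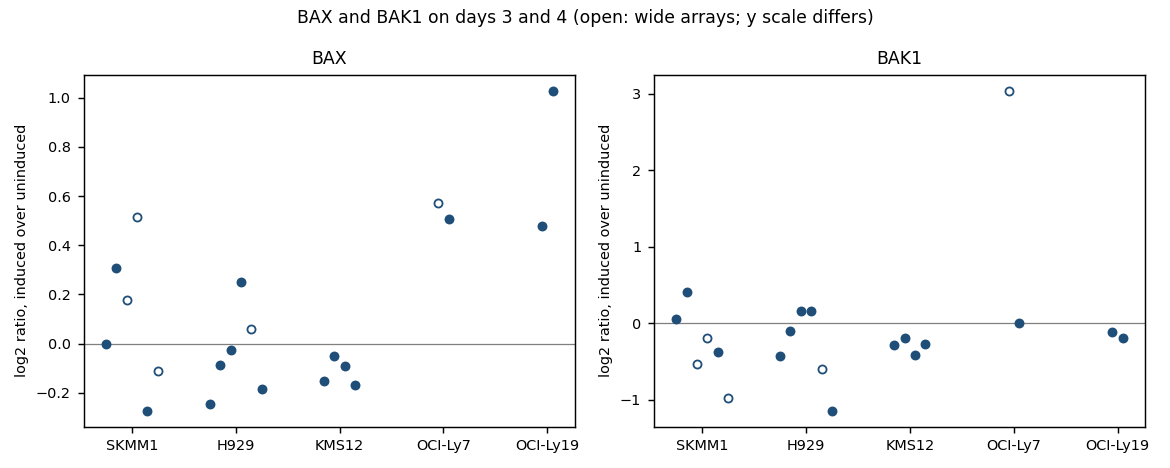
Log2 ratio of BAX and BAK1 (y axes, scales differ) on the arrays of days 3 and 4 by line (x axes), wide arrays open and the others filled. BAX is at 0.48 to 1.03 in the 2 lymphoma lines and at -0.27 to 0.51 in the 3 myeloma lines, and BAK1 is high on 1 wide OCI-Ly7 array, at 3.04.

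The SKMM1 arrays against shCtrl set 2 induced hairpins against each other. They form 1 course, so no test was made, and their induced RNA may be that of another course. The 4 arrays are not wide. On days 1 to 4, BCL2 was at 0.23, 0.70, 0.52 and 0.24 against shCtrl, and at -0.52, 0.43, 0.34 and 0.14 against uninduced cells in repeat 1. BCL2A1 was at 0.43, 0.48, 0.34 and 0.07 against shCtrl, and at -0.42, 0.43, 0.30 and 0.18 against uninduced cells. Both genes were above 0 on each day against shCtrl, as were 28% of all features, and on days 2 to 4 against uninduced cells.

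MCL1 was at -0.23, -0.41, -0.20 and -0.21 against shCtrl, and at 0.14, -0.11, -0.29 and -0.09 against uninduced cells of the same days. It was below 0 on each day against shCtrl, as were 22.5% of all features, and on days 2 to 4 against uninduced cells. BCL2L1, BAX, BAK1 and BAD changed sign between days against shCtrl, with means of -0.33 ± 0.43, -0.02 ± 0.21, -0.02 ± 0.52 and -0.25 ± 0.63 over the 4 days (SD). CASP10 averaged -0.61 ± 0.14 on these arrays and -0.49 ± 0.29 against uninduced cells (SD over 4 days).

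The family genes did not vary as a block. Over the 28 arrays that are not wide, with each array's median taken off, Pearson's r between 2 family genes ran from -0.70 (MCL1 and BCL2A1) to 0.62 (BAX and BAD) over 21 pairs, with a median of 0.02, beside 0.01 for all pairs of named genes. MCL1 and BCL2L1 had an r of 0.48 with each other and of -0.69 and -0.51 with BCL2. These are descriptions, since the points share lines and courses. The named genes most like each member were BANK1 (r = 0.89) and G0S2 (0.89) for BCL2, PSMF1 (0.88) and CD59 (0.86) for MCL1, FERMT2 (0.88) and ENPP5 (0.87) for BCL2A1, and COTL1 (0.73) and HOPX (0.72) for BCL2L1. For the death genes they were CRAT (0.88) and JAG2 (0.87) for BAX, HRAS (0.75) and RAB1B (0.71) for BAK1, and COPS7B (0.86) and GTF3C2 (0.84) for BAD. Over all 40 arrays these values were 0.43 or more, except for HRAS with BAK1, at -0.14.

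Other genes of the pathway were mostly without a call too. Of 14 further BCL2 family genes 11 were measured, and 0 were called in either myeloma fit. Without the wide arrays 7 of these lay above 0, with a median of 0.07, and with all arrays 0 did, with a median of -0.21. The 2 with the smallest p in the first of these fits were BNIP3L (-0.50, SE 0.16, adjusted p = 0.0901), a mitophagy receptor, and HRK (0.23, SE 0.083, adjusted p = 0.118), a BH3-only gene. Of 17 binding partners and regulators 11 were measured and 0 called. The 2 with the smallest p were YWHAQ (-0.17, SE 0.056, adjusted p = 0.0966), a 14-3-3 protein of the class that binds BAD, and BCLAF1 (0.27, SE 0.13, adjusted p = 0.244), a BCL2-associated transcription factor, which lay above 0 in 7 of 7 courses, as did 2.53% of all features. With all arrays BCLAF1 was at 0.03 and below 0 in 3 of 8 courses.

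Downstream of the mitochondrion, 11 of 18 caspases, cytochrome c genes, substrates and inhibitors were measured and 0 called. PARP1, cut by caspases, was at -0.18 (SE 0.057, adjusted p = 0.0828), and CASP9, the initiator that cytochrome c activates, at -0.17 (SE 0.064, adjusted p = 0.137). In the death receptor arm 10 of 12 genes were measured, and CASP10, the target, was called lower without the wide arrays (-0.28, SE 0.061, adjusted p = 0.0254) and not with all arrays (-0.61, adjusted p = 0.682). That call was lost without H929 shCasp10-2 repeat 1, KMS12 shCasp10-2, KMS12 shCasp10-3 or SKMM1 repeat 1 (adjusted p = 0.0897, 0.111, 0.153 and 0.0589), and with SKMM1 repeat 3 turned (0.377). In these settings, each without the wide arrays, and with any other course of that fit left out, CASP10 lay between -0.32 and -0.23. With course means in place of single arrays no feature was called without the wide arrays, CASP10 included.

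Of 8 plasma cell markers, 0 were called, and 3 lay above 0 and 5 below in each fit, with medians of -0.07 without the wide arrays and -0.08 with all. In the first of these fits the 2 with the smallest p were TNFRSF17, the BCMA receptor (-0.16, adjusted p = 0.221), and MZB1 (-0.21, adjusted p = 0.312). Of 16 T and NK cell markers, which a myeloma line should not express, 14 lay below 0 without the wide arrays and all 16 with them, with medians of -0.20 and -0.57. Of all features 47.7% and 81.3% lay below 0 in these fits, with medians of 0.01 and -0.27. NKG7, a gene of cytotoxic granules, was called lower (-0.43, SE 0.11, adjusted p = 0.0374), and the call was lost when any 1 course other than SKMM1 repeat 3 was left out (adjusted p = 0.0629 to 0.158, values of -0.55 to -0.26) or when SKMM1 repeat 3 was turned (-0.43, adjusted p = 0.322). With course means in place of single arrays that call was lost too. The part of the wide arrays and of these markers in the values of BCL2 and BCL2A1 was not tested.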

How the data were processed

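The authors deposited 1 log2 ratio per probe and array, for 15246 probes on 40 arrays with 0 missing values. Per the labels, 50 µg of Trizol-extracted total RNA was labelled per dye. The sources used here give no background correction, normalisation, log base or direction. Without intensities, signal over background is unknown, and the number of arrays limits the precision. The platform annotation, which is old, gave 1 symbol for 10169 probes, several for 4 and none for 5073. Entrez identifiers of 10128 matched RefSeq (GRCh38.p14), which supplied coordinates.

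The family genes and lists were chosen with earlier results of these data known. Named genes were all 9 members, CASP10, every called gene of the other lists or else the 2 with the smallest p, and the 2 genes most like each member.

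Probes of a gene were averaged. Courses were averaged over days 2 to 4 (3 and 4 against lymphoma) and the means tested in R 4.3.3 by lmFit and eBayes of limma 3.58.1, with Benjamini-Hochberg adjustment at 0.05. The fit without wide arrays (over 10% of probes beyond 3) used single arrays with the course as a random block (duplicateCorrelation, 0.249), and SKMM1 repeat 2 dropped out of it. Days 1 and 5 of SKMM1 and of H929 shCasp10-2 were placed by runs of database numbers. The labels call the SKMM1 day 5 arrays repeats 1 and 2, and they were placed in repeats 2 and 3. All these arrays stayed out of the fits, except the alternative with other days. The labels call the repeats of SKMM1 and H929 biological, and say nothing of the other courses. P-values of course means therefore measure the spread between these courses. In the fit of single arrays they also rest on the spread between days of a course. The fits were tested on simulated data. Alternatives were centring, scaling, probe medians, other days, turned signs, a 5% limit, the block, and each course left out.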

Additional observations from a re-analysis of the deposited data

Results flagged for a closer look

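In 14 sets of course means (7 genes, with and without the wide arrays), 1 held a course far from the others. BAD in SKMM1 shCasp10-2 repeat 3 was at -0.70, against -0.18 to 0.15 in the other 7 courses, and chance alone singles out about 1 set in 20.

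Some lines lay on opposite sides of 0 on every array, a difference that was not tested between single lines. BAX averaged -0.19 over the 8 KMS12 arrays, all below 0, against 0.54 in OCI-Ly7 and 0.75 in OCI-Ly19, all above 0. Of all features, 5.86% lay opposite in this way in KMS12 and OCI-Ly7, 3.96% in KMS12 and OCI-Ly19, and 2.5% in KMS12 and both lymphoma lines. BAK1 averaged -0.29 in KMS12, all below 0, against 1.52 in OCI-Ly7, both above 0, one of them at 0.004. The lymphoma lines also lay opposite to each other, with 2 arrays each. BCL2 averaged 0.95 in OCI-Ly7 and -0.34 in OCI-Ly19, BAK1 1.52 and -0.16, and BAD -0.57 and 0.81. These were 3 of 7 genes, beside 11.8% of all features. The OCI-Ly7 day 3 array is wide.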

How the results depend on the processing

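No setting called a family gene in any comparison; the smallest adjusted p was 0.077. The count of all features called without the wide arrays, 442, was 0 with course means in place of single arrays. It was 1320 with no course block, 1733 with a 5% limit, 0 with SKMM1 repeat 3 turned and 0 to 790 with 1 course left out. For myeloma minus lymphoma, 0 became 206 without the wide arrays, 262 when these were also centred, 32 and 25 with SKMM1 repeat 2 or 3 turned, and 0 to 82 with 1 course left out (50 without SKMM1 repeat 2, 82 without OCI-Ly19). Signs of several family genes were unsteady, and the cause was not tested. This held for values near 0 and also for BCL2 (-0.61) and BCL2A1 (-0.27) with all arrays. With all arrays, centring gave BAX 0.058 and BAD 0.011, centring with scaling gave BAX 0.0056, a turned SKMM1 repeat 2 gave BCL2L1 -0.0096 and MCL1 0.0019, and a turned repeat 3 gave BAD 0.069. Course means without the wide arrays gave BCL2 0.084, BCL2L1 -0.059 and BCL2A1 0.00099, the 5% limit gave 0.088, -0.12 and 0.072, and centring without wide arrays gave BCL2 0.073 and BCL2L1 -0.071. With 1 course left out BCL2L1 ran from -0.036 to 0.044, BAX from -0.093 to 0.0050 and BAD from -0.14 to 0.00029. Without the wide arrays, a turned SKMM1 repeat 3 gave BCL2 -0.21 and MCL1 0.013, and BCL2A1 was 0.12 with probe medians, 0.0014 with no course block and 0.079 with the 5% limit. With 1 course left out there, BCL2 ran from -0.039 to 0.21, BCL2L1 from -0.10 to 0.018 and BCL2A1 from -0.15 to 0.12. BAD in myeloma minus lymphoma ran from -0.93 to 0.45. The 5% limit on course means, the centred fit without wide arrays and the fits without a lymphoma course were chosen after seeing the data. No lymphoma line had a repeat course, so every myeloma minus lymphoma fit assumes that lymphoma courses vary like the myeloma ones. The fits without 1 of the 2 lymphoma courses make the same assumption.

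Repeats 1 and 2 of SKMM1 and H929, 2 pairs, deviated from their group means with an r of -0.60 as deposited and of 0.51 with SKMM1 repeat 2 turned, and the labels give these numbers no shared day or batch. With the repeat number as a replicate block, SKMM1 minus H929 called 0 features, as without it.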
